A study of Homo sapiens with 2 samples.

Results

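The genes described here encode the E2F transcription factors and the pocket proteins of the RB family in HCT116, a human colon carcinoma cell line. The members were the rows of the deposited count table named E2F1 to E2F8, RB1 and RBL1, 10 of 60954 rows. All 10 passed the filter of a mean of at least 1 CPM (read counts scaled to the library size), as did 13217 named genes in all. The pocket protein gene RBL2 was not among the named members and is given with the partner genes.

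The study compared siControl, HCT116 cells that received a non-specific siRNA, with siKAT7, HCT116 cells that received an siRNA against KAT7. Both cultures are labelled wild type and were transfected with a lipid reagent. KAT7, also called HBO1, is a histone acetyltransferase. Each group had 1 library, so no difference below has a replicate check, and every interval is a 95% interval that covers counting error only.

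E2F factors bind promoters of genes needed for DNA replication and mitosis, most of them as dimers with a DP protein. E2F1, E2F2 and E2F3 are known mainly as activators, E2F4 and E2F5 as factors that repress together with pocket proteins in resting cells, E2F6 as a repressor that works with Polycomb proteins, and E2F7 and E2F8 as repressors that bind without DP. The pocket proteins RB (RB1), p107 (RBL1) and p130 (RBL2) hold E2F factors in check until cyclin-dependent kinases phosphorylate them. HCT116 cells divide continuously, a state in which E2F activity is known to be high.

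Several family genes are themselves known E2F targets, so the bases before their start sites are shown first. RefSeq windows on GRCh38.p14 were matched by symbol for 8 of the 10 members. E2F5 and E2F8 were not matched. The window for RB1 starts at base 48476450 of chromosome 13, inside the gene (48303726 to 48599436), and is not shown. The 250 bases before each start were searched on both strands for 4 words of the E2F core. The first was TTTCGCG, another had the central letters changed to give TTTGGCG, the third form was TTTCCCG, and the last one searched was TTTGCCG. At least 1 of these words was present in 7.33% of all 35116 windows, and 2 or more in 0.496%. In the windows of measured genes the shares were 10.5% and 0.823%. Members were counted by their window with the most words. Counted in that way, 109 of the 9754 measured genes with a window had 2 or more. Of the 8 matched members, RB1 included, 5 (E2F1, E2F2, E2F3, E2F6 and RBL1) had 2 or more. The last 150 bases before the start are printed for these, except E2F6, and for E2F7 and E2F4, which had no such word. They run 5′ to 3′ on the gene's strand, and capitals mark the words.
E2F1 (chr20:33686386-33686535, minus strand): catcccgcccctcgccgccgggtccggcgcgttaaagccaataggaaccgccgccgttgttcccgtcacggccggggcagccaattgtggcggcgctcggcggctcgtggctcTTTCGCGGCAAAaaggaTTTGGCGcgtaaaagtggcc
E2F2 (chr1:23531234-23531383, minus strand): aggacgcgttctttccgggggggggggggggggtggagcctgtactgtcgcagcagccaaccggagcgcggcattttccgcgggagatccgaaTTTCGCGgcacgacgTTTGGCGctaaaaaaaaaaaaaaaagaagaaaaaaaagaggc
E2F3 (chr6:20401729-20401878, plus strand): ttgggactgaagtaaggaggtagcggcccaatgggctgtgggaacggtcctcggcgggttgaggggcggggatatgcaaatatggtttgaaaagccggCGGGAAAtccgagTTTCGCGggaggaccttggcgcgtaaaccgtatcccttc
RBL1 (chr20:37095998-37096147, minus strand): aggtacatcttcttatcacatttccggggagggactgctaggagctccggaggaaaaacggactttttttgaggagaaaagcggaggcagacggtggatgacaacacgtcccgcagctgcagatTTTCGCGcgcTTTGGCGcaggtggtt
E2F7 (chr12:77065570-77065719, minus strand): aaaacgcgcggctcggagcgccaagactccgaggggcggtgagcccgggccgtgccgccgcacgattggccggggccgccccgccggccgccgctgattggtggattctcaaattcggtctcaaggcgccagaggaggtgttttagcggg
E2F4 (chr16:67192005-67192154, plus strand): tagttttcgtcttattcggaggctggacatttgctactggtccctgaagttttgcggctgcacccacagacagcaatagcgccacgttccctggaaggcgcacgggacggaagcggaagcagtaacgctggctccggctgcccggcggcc

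E2F1, E2F2 and RBL1 shared the same pair of words in the same order, with TTTCGCG lying upstream of the word TTTGGCG, close to the start. The pair began at bases -37 and -20 from the start in E2F1, -57 and -42 in E2F2, and -26 and -16 in RBL1. In E2F1 a TTTGCCG word on the other strand overlapped the first of them. E2F3 had TTTCGCG at base -39 and TTTCCCG on the other strand at base -52, and its second RefSeq start, at base 20403614 of chromosome 6, had no word. In E2F6 both words were TTTCCCG, at bases -183 and -78. A word is a match of letters, not a measured binding site, and a window without one says nothing about binding elsewhere.

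**Figure D1:**
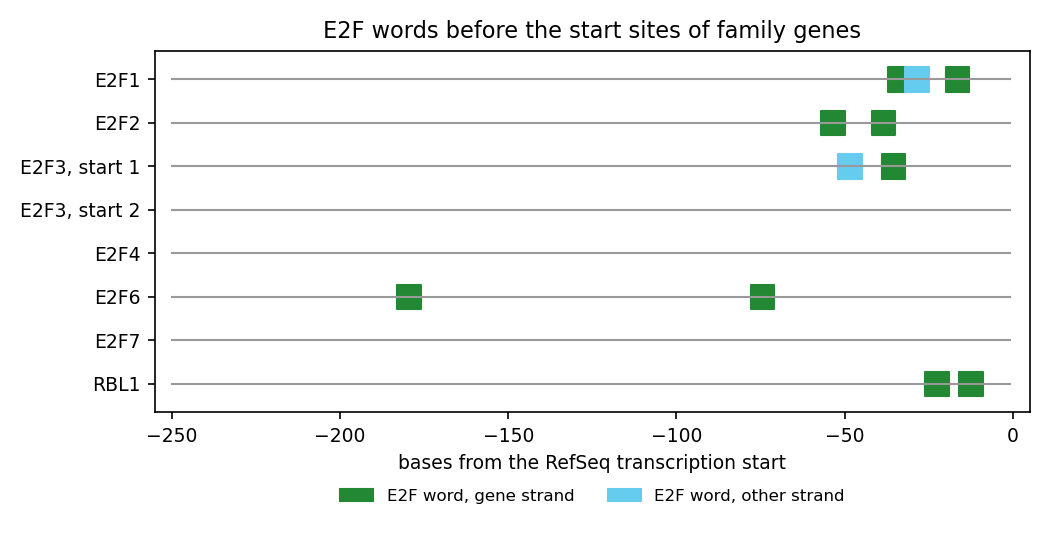
Positions of the 4 E2F words in the 250 bases before RefSeq start sites of family genes, in bases from the start, with green boxes on the gene's strand and blue boxes on the other strand. The words of E2F1, E2F2, E2F3 and RBL1 lie within the last 57 bases, and those of E2F6 at -183 and -78.

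Levels within the family were compared per kilobase of the gene model length in the deposited table. E2F4 was the most abundant member by far, at 55.6 CPM per kb in siControl (53.6 to 57.7) and 59.0 in siKAT7 (56.8 to 61.2). E2F1 came next, at 13.9 CPM per kb in siControl and 12.6 in siKAT7. E2F2 had 5.15 and 3.94 CPM per kb, and E2F6 had 4.72 and 4.23. Their intervals overlapped in both libraries, so the order of this pair was not resolved. In siControl E2F8 (3.37 CPM per kb) lay below E2F6 and above RB1, and RB1 (2.37), E2F3 (2.17) and E2F5 (1.90) overlapped their neighbours in the order. In siKAT7 E2F5 (2.90), E2F8 (2.87), E2F3 (2.26) and RB1 (2.14) each overlapped the next. E2F7 (1.23 and 0.801 CPM per kb) and RBL1 (0.397 and 0.326) were the lowest members in both libraries. With the longest GENCODE 29 transcript as the length, E2F5 moved from rank 8 to rank 9 in siControl and E2F7 from 9 to 8, because that transcript has 5042 bases and the table gives 1964.

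E2F4 and E2F5 together made up 65.3% of the summed E2F level per kb in siControl and 69.9% in siKAT7, nearly all of it E2F4. The activators E2F1, E2F2 and E2F3 held 24.1% and 21.2%. E2F6 held 5.36% and 4.78%, and E2F7 and E2F8 together held 5.22% and 4.15%. These shares use the gene model length in the deposited table. With the longest GENCODE transcript as the length, E2F4 fell to 44.9 CPM per kb in siControl and 47.6 in siKAT7. E2F1 then stood at 15.0 and 13.5 CPM per kb. The shares therefore depend on the length used, and that of E2F4 and E2F5 is smaller at the transcript length.

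**Figure D2:**
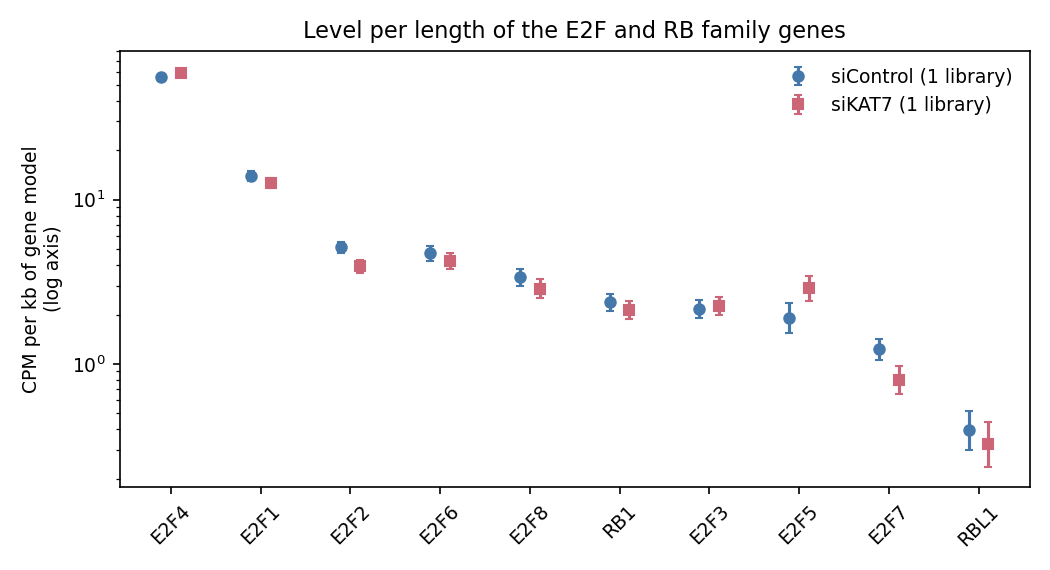
Level of each family gene in CPM per kilobase of gene model on a log axis, in siControl (circles) and siKAT7 (squares), 1 library each. Bars are 95% Poisson intervals of the counts, and E2F4 stands above E2F1, the next gene, in both libraries.

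Between the libraries the family showed small differences in both directions, with E2F7 lower and E2F5 higher in siKAT7 by just over 1.5-fold. The rule for a call, higher or lower, was a 1.5-fold difference and an interval without a log2 ratio of 0. In bulk RNA, less RNA per cell and a smaller share of cells in the phase that expresses a gene cannot be told apart. By this rule 1 of 10 members was higher, against 3.93% of all measured genes, and 1 of 10 was lower, against 3.88%. With so few members, 1 call in each direction is no sign that the family differed from other genes. Under total-count scaling E2F7 was still called and E2F5 was not, against 2.72% of all genes higher and 6.34% lower. The authors' deposited table marks 0 of the 10 members as significant, and 1.48% of the measured genes. That mark needs a log2 fold of at least 1 in size and an adjusted p under 0.001, and no member has such a fold. The adjusted p in the authors' deposited table, which compares 2 libraries and not the conditions, is 1.9e-07 for E2F2, 0.00036 for E2F7, 0.002 for E2F1, 0.032 for E2F8 and 0.043 for E2F5. These 5 members are under 0.05 there, as are 40.6% of the measured genes.

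Of the 10 members, 7 had a log2 ratio of siKAT7 over siControl below 0, against 50.5% of all measured genes. The members' median log2 ratio was -0.15, against -0.0036 over all measured genes. Under total-count scaling 9 members were below 0, against 65.9% of all genes, and the medians were -0.26 and -0.11. Intervals lay below 0 for 3 members (E2F1, E2F2 and E2F7), above it for 2 (E2F4 and E2F5) and included it for 5. Among all measured genes the shares were 21.9%, 23.1% and 55.0%. With total-count scaling, intervals lay below 0 for 6 members (E2F6, E2F8 and RB1 in addition), against 35.6% of all genes, and above it for 1 (E2F5), against 13.3%.

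**Figure D3:**
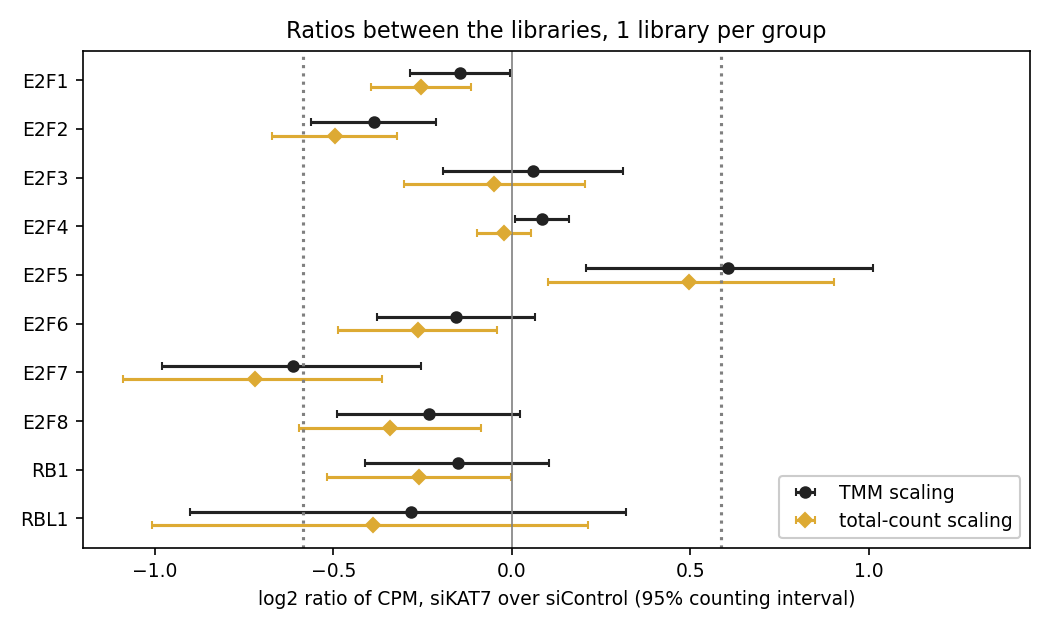
Log2 ratio of CPM, siKAT7 over siControl, for each family gene, with 95% counting intervals under TMM scaling (black circles) and total-count scaling (yellow diamonds). Dotted lines mark 1.5-fold, which E2F5 at 0.60 and E2F7 at -0.61 pass under TMM scaling, and which E2F5 does not reach at 0.50 under total-count scaling.

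Among the activators, E2F2 had the largest difference. E2F2 (ENSG00000007968, chromosome 1, 23506430 to 23531220) had 652 counts in the siControl library, against 464 in siKAT7. Its level was 26.8 CPM in siControl and 20.5 in siKAT7, or 76.5% of the siControl level (67.7% to 86.2%). The log2 ratio was -0.39 (-0.56 to -0.21), beyond counting error and short of 1.5-fold. E2F1 (ENSG00000101412, chromosome 20, 33675683 to 33686404), the founding member of the family, had 913 counts in the siControl library, against 768 in siKAT7. Its log2 ratio of -0.15 had an interval of -0.29 to -0.0062, which nearly reached 0. E2F3 (ENSG00000112242, chromosome 6, 20401906 to 20493715), which can make isoforms from separate starts that the gene-level table does not divide, had 266 and 258 counts. Its log2 ratio of 0.06 (-0.19 to 0.31) was within counting error, and total-count scaling gave -0.05. The 3 activators summed to 1831 counts in siControl and 1490 in siKAT7, a log2 ratio of -0.19 (-0.29 to -0.09), or -0.30 under total-count scaling. E2F1 and E2F2, which carry the same pair of E2F words, both lay below 0 under either scaling, but RBL1 with that pair was not separated from 0. E2F3, with 2 words, was at 0.06, and E2F7, with no word in its window, had the lowest ratio of the family, at -0.61. Whether the words have a part in these ratios was not tested.

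E2F4 and E2F5, the factors that act mainly with pocket proteins, differed in their ratios. E2F4 (ENSG00000205250, chromosome 16, 67192169 to 67198918) had 2856 counts in the siControl library, against 2821 in siKAT7, the steadiest large count of the family. Its log2 ratio was 0.09 (0.01 to 0.16) with TMM scaling and -0.02 (-0.10 to 0.05) with total-count scaling, so its direction rested on the scaling. E2F5 (ENSG00000133740, chromosome 8, 85177225 to 85217158) had 90.74 expected counts in the control library, against 128.92 in siKAT7. It stood at 3.74 and 5.69 CPM, 1.52-fold higher in siKAT7, with a log2 ratio of 0.60 (0.21 to 1.01). With total-count scaling the log2 ratio was 0.50 (0.10 to 0.90), under the 1.5-fold limit.

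The E2F5 gene shares 969 exon bases with RBIS, a protein-coding gene on the opposite strand. RBIS had 679.26 expected counts with the control siRNA, against 703.76 in siKAT7, a log2 ratio of 0.16. The sources used here do not give the strand setting of the counting, so reads of this pair may not be told apart. The summed counts of both genes had a log2 ratio of 0.22 (0.07 to 0.36), which is not past 1.5-fold. RBIS supplied most of these counts, so the sum stays near the RBIS ratio and cannot show whether E2F5 itself differed.

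E2F6 (ENSG00000169016, chromosome 2, 11444375 to 11466177) had 371 counts in the siControl library, against 310 in siKAT7. The log2 ratio of -0.16 (-0.38 to 0.07) was within counting error. With total-count scaling it was -0.26 (-0.49 to -0.04).

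The atypical members were both lower in counts, E2F7 more so than E2F8. E2F7 (ENSG00000165891, chromosome 12, 77021247 to 77065580), known as both an E2F target and a p53 target, had 171 counts in the siControl library, against 104 in siKAT7. It stood at 7.02 and 4.59 CPM, 1.53-fold lower in siKAT7, with a log2 ratio of -0.61 (-0.98 to -0.25). Total-count scaling gave -0.72 and DESeq2 size factors -0.61, so E2F7 passed the 1.5-fold rule under each scaling. E2F8 (ENSG00000129173, chromosome 11, 19224063 to 19241620) had 289 and 229 counts, a log2 ratio of -0.23 (-0.49 to 0.02). That interval included 0, and the one under total-count scaling, at -0.34 (-0.60 to -0.09), did not. Summed over the pair, siControl had 460 counts and siKAT7 333, and the log2 ratio was -0.36 (-0.57 to -0.16).

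The pocket protein genes were counted at low levels. For RB1 (ENSG00000139687, chromosome 13) there were 277 counts in siControl, against 232 in siKAT7, a log2 ratio of -0.15 (-0.41 to 0.10), or -0.26 (-0.52 to -0.0040) under total-count scaling. RBL1 (ENSG00000080839, chromosome 20, 36996349 to 37095995) had 54.93 expected counts and 42. At that depth its log2 ratio of -0.28 had an interval of -0.90 to 0.32, a range that holds both 0 and 1.5-fold lower. RBL2, which is typical of resting cells, had 116.39 and 136.90 expected counts, a log2 ratio of 0.34 (-0.02 to 0.71). The sum over RB1, RBL1 and RBL2 was 448 and 411 counts, a log2 ratio of -0.02 (-0.22 to 0.18).

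A ratio between members of the same library does not depend on the scaling, and E2F4, chosen after its values were seen because it had the most counts, served as the common base. Relative to E2F4, E2F7 was lower in siKAT7 by a log2 ratio of -0.70 (-1.07 to -0.33), going from 5.99% of the E2F4 count to 3.69%. E2F2 went from 22.8% to 16.4%, a log2 ratio of -0.47 (-0.66 to -0.28). E2F1 (-0.23, interval -0.39 to -0.07), E2F8 (-0.32, -0.59 to -0.05) and E2F6 (-0.24, -0.48 to -0.0067) were also lower relative to E2F4. E2F5 went from 3.19% to 4.57% of the E2F4 count, a log2 ratio of 0.52 (0.12 to 0.93). The intervals of E2F3 (-0.29 to 0.24), RB1 (-0.51 to 0.03) and RBL1 (-0.99 to 0.24) included 0. The balance between E2F4 and E2F1, E2F2, E2F6, E2F7 and E2F8 thus differed between these 2 libraries beyond counting error. E2F5 differed in the other direction. All these comparisons share E2F4 as their base, and 62.8% of all measured genes had a lower ratio than E2F4.

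No member lay outside the central 95% of log2 ratios of genes with similar levels. E2F5 and E2F7 belong to 3122 genes between 3 and 10 CPM on average, for which that range ran from -0.74 to 0.76. In this band 4.64% of genes were called higher and 5.48% lower. For the 3159 genes with 10 to 30 CPM, which include E2F2, E2F3, E2F6, E2F8 and RB1, the range was -0.54 to 0.51, and 1.46% were called higher and 1.68% lower. RBL1, with a mean of 2.06 CPM, fell in a band of 2261 genes that ran from -1.38 to 1.32. Over all measured genes, 3.91% had a lower ratio than E2F7, 10.6% a lower ratio than E2F2, and 95.8% a lower ratio than E2F5.

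**Figure D4:**
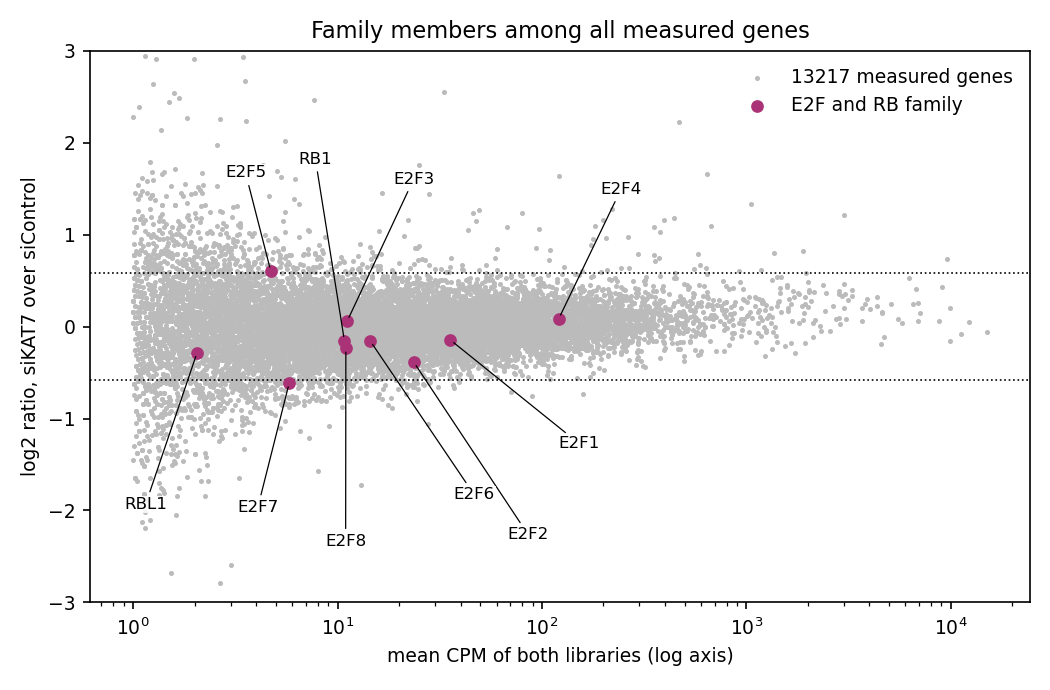
Log2 ratio, siKAT7 over siControl, against the mean CPM of both libraries on a log axis, for 13217 measured genes (grey) and the 10 family genes (purple), with dotted lines at 1.5-fold. The family genes sit inside the cloud of genes of similar level, with E2F5 at its upper and E2F7 at its lower side, and 21 genes lie beyond the plotted range of 3 in size.

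The DP partners were lower in counts. TFDP1, which encodes the main dimer partner DP1, had 2906 counts against 2112 in siKAT7, a log2 ratio of -0.36 (-0.44 to -0.28). TFDP2, its paralogue, had 604.02 and 470.65 expected counts and a log2 ratio of -0.26 (-0.43 to -0.08). TFDP3 had 0 counts in both libraries. Both measured DP genes were therefore below 0 beyond counting error, and neither reached 1.5-fold.

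The MuvB core joins E2F4, DP and p130 or p107 in the DREAM repressor, and joins MYBL2 and FOXM1 in activating mitotic genes. LIN54, its DNA-binding subunit, was 1.62-fold lower, with 141 counts against 81 in siKAT7 and a log2 ratio of -0.69 (-1.11 to -0.29). It was the only one of 9 measured genes of this list that was called, against 3.88% of all measured genes called lower. The list median was -0.06. Below 0 were 6 of 9 members, against 50.5% of all measured genes, or 8 of 9 under total-count scaling, against 65.9%.

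None of the 10 pocket protein corepressors passed the rule, and their median log2 ratio was -0.04. With 5 above 0 and 5 below, their values went both ways. Among those with at least 100 counts, the largest in size were SUV39H1, a histone methyltransferase (-0.31), SIN3A, a scaffold of deacetylase complexes (-0.29), and ARID4B, an RB-binding subunit of such complexes (0.26). Under total-count scaling 3 were above 0. The 10 genes of the Polycomb complex that contains E2F6 were also not called, with 5 above 0 and 5 below. MGA, its scaffold, had a log2 ratio of 0.43 (0.11 to 0.76), L3MBTL2 -0.42 (-0.60 to -0.24) and the ubiquitin ligase gene RING1 0.37 (0.29 to 0.46). Of 7 germ cell genes known to be repressed through E2F6, 3 had 0 expected counts in both libraries and STAG3 alone passed the expression filter, at 53.1 and 51.38.

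Upstream of RB, 0 of the 12 measured genes of cyclins, kinases and regulators such as SKP2 passed 1.5-fold. Of the 12, 10 were below 0, against 50.5% of all genes. Intervals lay below 0 for 5, above it for 1 and included it for 6. Among all measured genes the shares were 21.9%, 23.1% and 55.0%. CCND1, which encodes cyclin D1, had a log2 ratio of -0.34 (-0.38 to -0.29), the G1 kinase gene CDK6 -0.27 (-0.52 to -0.02), and SKP2, which directs degradation of p27, -0.24. Under total-count scaling all 12 were below 0, as were 65.9% of all measured genes. Of the 7 CDK inhibitor genes, none was called and 5 were above 0. CDKN1C, which encodes p57, had a log2 ratio of 0.49 (0.44 to 0.55), CDKN2A 0.28 (0.18 to 0.39) and CDKN1B, which encodes p27, -0.25 (-0.39 to -0.11). Under total-count scaling 3 of the 7 were above 0.

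Downstream, 4 of 30 genes used as G1/S targets of E2F were called lower, against 3.88% of all measured genes, and 0 higher. Of the 30, 23 were below 0, against 50.5% of all measured genes. The called genes were PRIM1 and POLA2, subunits of the primase and polymerase alpha complex, PCNA, the replication clamp, and MCM4, a helicase subunit. Their log2 ratios were -0.87, -0.72, -0.76 and -0.71. The list median was -0.22, and 18 of the 30 intervals lay below 0, against 21.9% of all measured genes. With total-count scaling 6 were called lower, against 6.34% of all measured genes, and the median was -0.33. CDC6, CDT1 and ORC1, licensing genes often used as E2F reporters, were chosen after their values were seen. Their log2 ratios were 0.06 (-0.12 to 0.24), 0.10 (0.04 to 0.15) and 0.14 (-0.16 to 0.44). All were above 0, unlike the list's median, but the intervals of CDC6 and ORC1 included 0. CDC6 and CDT1 turned negative under total-count scaling, at -0.05 and -0.01, and the intervals of CDC6, CDT1 and ORC1 then all included 0.

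Of 22 late targets of DREAM, 19 were below 0, against 50.5% of all measured genes, and the median was -0.17. In this list 4 were called lower (CENPF, CENPE, CCNB2 and CCNA2), against 3.88% of all measured genes, and 0 higher. The log2 ratios of the called genes ran from -0.81 for CENPF to -0.61 for CCNA2. With total-count scaling 6 were called lower, against 6.34% of all measured genes. The 9 measured apoptosis genes known as E2F1 targets had a median of 0.05, or -0.06 under total-count scaling. Of these, 6 were above 0 and 3 below. Intervals lay above 0 for 3, below it for 1 and included it for 5. HRK, a BH3-only gene, was the only one called higher, against 3.93% of all measured genes, and 0 were called lower. HRK had 48 and 72 counts (log2 ratio 0.68, lower bound 0.14). That ratio lies inside the central 95% of genes with 1 to 3 CPM, from -1.38 to 1.32. HRK lost its call under total-count scaling, at 0.57. Earlier results of these data had already shown replication and mitotic genes to be lower, so the target lists are no independent support for the family's values.

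**Figure D5:**
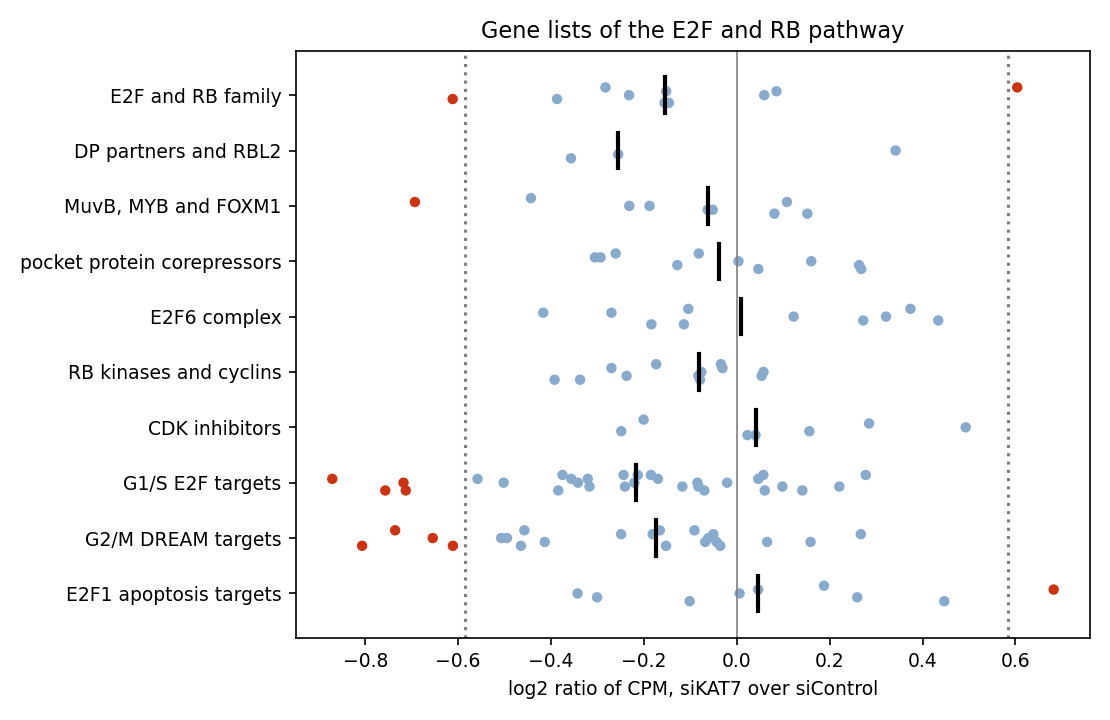
Log2 ratios of the measured genes in the family and in 9 pathway lists, 1 point per gene, red where a gene passes 1.5-fold (dotted lines) with an interval that excludes 0, and black bars at each list's median. The G1/S and G2/M targets hold 4 red points each on the lower side, and their medians are -0.22 and -0.17.

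The E2F words were also set against the ratios of all genes. Of the 9754 measured genes with a RefSeq window, 109 had 2 or more words, with a median log2 ratio of -0.10 and 63.3% below 0. The 8369 genes with no word had a median of -0.0060 and 51.0% below 0, and the 1276 with 1 word had -0.03 and 53.0%. Called lower were 3.30% of the genes with no word, 4.15% of those with 1 word, and 1.83% of those with 2 or more, the last being 2 genes. The median GC content of the windows was 63.6% with 2 or more words and 65.6% with none. E2F1, E2F2, E2F3, E2F6 and RBL1 are among the genes with 2 or more words.

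The libraries held 23450331 expected counts of named genes in siControl and 23533186 in siKAT7. KAT7, the siRNA target, had 442.94 and 287.22 expected counts, a log2 ratio of -0.52 (-0.74 to -0.31), which matches the direction of the labels. Its level in siKAT7 was 69.6% of that in siControl, short of the 1.5-fold rule, and 5.77% of all measured genes had a lower ratio. Under total-count scaling, at -0.63, KAT7 was called lower. Of 8 colon epithelial markers 6 were measured, led by KRT8. CDX1 had 0 counts in both libraries, and VIL1, at a mean of 0.573 CPM, did not pass the filter. Of 8 markers of other cell types, PTPRC, PECAM1, CDH5 and ALB had 0 counts in both libraries, and CD68 and COL1A1 passed the filter. The summed level of those 8 was 112 CPM in siControl and 122 in siKAT7. Nearly all of it was CD68 (80.5 and 90.8 CPM) and COL1A1 (31.2 and 31.1), and its part in the family's values was not tested.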

How the data were processed

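RNA-seq of 1 library per group was used. The authors deposited expected counts of reads for each gene, which RSEM estimates and which can be fractions. RSEM 1.3.3 and GRCh38.p13 come from the submitters' processing notes. Not given in the sources used here are the aligner, the annotation release and the strand setting. The deposited table repeats both count columns, with 0 differing cells, and each library was used once. Its 331 unnamed rows, with 1.11% of counts in siControl and 1.67% in siKAT7, were left out. The authors' deposited comparison table holds each gene's fold (a ratio), the log2 of it, and p-values before and after adjustment, and the tool was not given. Its log2 fold, adjusted p and mark of significance were used, and the mark coincided with the limits given in the report for all 23510 genes tested there.

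Expected counts were rounded and scaled by TMM factors (1.04 for siControl, 0.963 for siKAT7; edgeR 4.0.16, R 4.3.3) from 13226 genes that averaged 1 CPM or more before scaling. Log2 ratios used a prior count of 0.5. Intervals are exact Clopper-Pearson 95% intervals of the split of a gene's counts, or exact Poisson intervals for levels. They cover counting error only, since each group had 1 library. Copies made by PCR, where counted as reads, would make them too narrow. Ratios to E2F4 have exact conditional odds ratio intervals (scipy 1.17.1). Coordinates came from GENCODE 29 on GRCh38 and promoter sequences from RefSeq on GRCh38.p14. In a simulation of this comparison with 13217 genes, all 100 genes with a true log2 ratio of 1 in size, all 100 with 1.5 and 78 of 13017 unchanged genes were called. The simulated counts had Poisson error only, with no variation between cultures, and the true differences were placed in genes of at least 10 CPM. Differences as small as those of E2F5 and E2F7, at their lower levels, were not simulated. Alternatives were total-count scaling, DESeq2 1.42.0 size factors, and other prior counts, filters, folds and intervals.

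The members and the gene lists were chosen with earlier results of these data known. Every member, KAT7, RBL2 and the DP genes are named. In each pathway list the called genes are named, or, where none was called, up to 3 with the largest log2 ratios among genes with at least 100 summed counts. CDC6, CDT1 and ORC1 fall outside this rule and were chosen after their values were seen.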

Additional observations from a re-analysis of the deposited data

How the results depend on the processing

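No paired analysis was possible because each group had 1 library. Of 87 ratios of members under 9 alternatives, 79 stayed inside the counting interval of the reported value and kept their call. The call was judged by the fold limit of each setting. The other filters, fold thresholds and interval leave the ratio itself unchanged. They could only change a call or an interval, or leave a member out. With 99% intervals, those of E2F1 (-0.33 to 0.04) and E2F4 (-0.01 to 0.18) included 0. The number of members called higher was 1 and became 0 with total-count scaling, a prior count of 5, a mean of at least 10 CPM, a 2-fold threshold or the authors' folds. The number called lower was 1 and became 0 with a mean of at least 10 CPM or a 2-fold threshold, and 2 with a lower fold threshold, which added E2F2. The filter of 10 CPM leaves out E2F5, E2F7 and RBL1. E2F4 turned from 0.09 to -0.0229 on the log2 scale with total-count scaling and to -0.0228 with the log2 fold of the authors' deposited table, and the sum of E2F4 and E2F5 turned from 0.10 to -0.0036 with total-count scaling. E2F3, whose interval includes 0, turned from 0.06 to -0.05 with total-count scaling and with the authors' folds. Total-count scaling moved the median of all measured genes by -0.11. E2F5 had a log2 ratio of 0.58 with a prior count of 5. RBL1, with 97 counts over both libraries, is the member whose depth limits its value most.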
